A study of Mus musculus with 16 samples.

Results

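The subject is a set of 7 genes of the red blood cell: the adult alpha globin genes Hba-a1 and Hba-a2, the adult beta globin genes Hbb-bs and Hbb-bt, and the erythroid genes Alas2, Slc4a1 and Ahsp, taken from the 22298 genes counted in every tumor. The list was selected on values of these same tumors, namely the difference between the groups and the high levels of 2 tumors, vehicle replicate 4 and IL-33 replicate 7, so those values are a description. Where a fit over all genes gives a p for them, it is printed as part of that fit and supports nothing. Of the 7, 6 were found by symbol, and Ahsp, which encodes a chaperone of free alpha globin, was not analysed here.

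The tumors came from wild-type mice, aged 6 weeks, that had received 500000 MFC cells, a mouse forestomach carcinoma line, in the peritoneal cavity. The vehicle group (8 tumors) had been given PBS and the IL-33 treatment group (8 tumors) IL-33 at 20 μg/kg, both intraperitoneally every 2 days. Poly(A) RNA of whole tumor tissue was sequenced, and the deposited values were raw read counts per gene. The model rests on 1 transplanted cell line, and the blood inside a tumor is part of what was sequenced. Nothing in the labels ties each tumor to a mouse of its own, so the spread between tumors may in part be technical. Total counts lay between 14139268 and 24290794 per tumor, and no 2 libraries agreed within sampling noise. A level is given below as CPM, a gene's counts scaled to a total of 1000000 counts per tumor, and the standard deviation (SD) is over the tumors of a group.

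Red blood cells fill with hemoglobin, a tetramer of alpha and beta globin chains that each hold a heme. Alas2 catalyses the first step of heme synthesis in erythroid cells, and Slc4a1 encodes band 3, the anion exchanger of the red cell membrane. Mature mouse red cells have lost their nucleus, while reticulocytes, the youngest cells in blood, still carry globin mRNA. Globin mRNA in a solid tumor is therefore usually read together with other red cell transcripts. In bulk tissue, fewer red cells and less RNA per red cell cannot be told apart.

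The adult globin genes come in near-identical pairs, and the sequences below show how little separates the copies within a pair. By GENCODE M21 on GRCm38, the same assembly as the mm10 named in the submitters' notes, Hba-a1 lies on the plus strand at chr11:32283511-32284465 and Hba-a2 at chr11:32296489-32297298, while Hbb-bs and Hbb-bt lie on the minus strand at chr7:103826534-103828096 and chr7:103812524-103813996. The coding sequences of Hba-a1 and Hba-a2 have 426 bases each and differ at 1 base, C381T, counted from the first base of the start codon with the Hba-a1 base first. Those of Hbb-bs and Hbb-bt have 441 bases each and differ at 1 base, C417T, with the Hbb-bs base first. The 41 coding bases around each difference are printed with the differing base in capitals.
Hba-a1: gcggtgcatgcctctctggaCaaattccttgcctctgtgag
Hba-a2: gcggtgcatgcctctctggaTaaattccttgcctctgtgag
Hbb-bs: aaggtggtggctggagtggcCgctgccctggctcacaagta
Hbb-bt: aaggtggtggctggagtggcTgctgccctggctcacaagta

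Of the 100-base pieces of the longest Hba-a2 transcript, 74.5% also occurred in the Hba-a1 transcript, and of those of Hbb-bs 62.6% occurred in Hbb-bt. The piece length was set for this count, and how the authors' counting treated reads that fit both copies is not given in the sources used here. The split between the 2 copies of a pair is therefore uncertain. Values of single copies are given as they were counted, and the ratios of globins to other genes and of alpha to beta globin use sums over copies. Alas2 lies on the plus strand at chrX:150547375-150570638, where its span overlaps Apex2 on the opposite strand, and Slc4a1 on the minus strand at chr11:102348824-102366203. Strand use in counting is not given in the sources used here either, so reads of Apex2 and Alas2 could not be separated with certainty.

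Since the genes moved together across tumors, the 250 bases before the RefSeq start of 4 of them are shown (RefSeq, GRCm38.p6, 5′ to 3′ on the strand of the gene). They lie at chr11:32296242-32296491 for Hba-a2, chr7:103827929-103828178 for Hbb-bs, chr7:103813924-103814173 for Hbb-bt and chrX:150547167-150547416 for Alas2. Capitals mark matches on either strand to the CACCC box (letters CACCC), the core of sites of erythroid Krüppel-like factors, to the GATA motif (GATAA), the core of GATA factor sites, to the CCAAT box (CCAAT) and to the TATA box (TATAA).
Hba-a2: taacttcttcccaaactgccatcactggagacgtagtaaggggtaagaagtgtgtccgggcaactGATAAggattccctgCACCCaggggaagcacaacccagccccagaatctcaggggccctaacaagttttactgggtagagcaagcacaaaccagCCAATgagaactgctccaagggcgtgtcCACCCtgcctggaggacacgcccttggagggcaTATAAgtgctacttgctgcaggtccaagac
Hbb-bs: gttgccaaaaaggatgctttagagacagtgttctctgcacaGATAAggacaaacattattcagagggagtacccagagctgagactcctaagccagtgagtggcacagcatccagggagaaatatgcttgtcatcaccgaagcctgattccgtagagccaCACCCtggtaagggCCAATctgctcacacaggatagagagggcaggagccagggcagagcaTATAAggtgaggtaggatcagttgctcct
Hbb-bt: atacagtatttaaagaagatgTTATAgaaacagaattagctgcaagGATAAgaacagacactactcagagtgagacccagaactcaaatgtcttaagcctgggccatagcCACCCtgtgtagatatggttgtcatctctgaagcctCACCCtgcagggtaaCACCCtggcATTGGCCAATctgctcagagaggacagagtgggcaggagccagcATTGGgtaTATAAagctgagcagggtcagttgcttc
Alas2: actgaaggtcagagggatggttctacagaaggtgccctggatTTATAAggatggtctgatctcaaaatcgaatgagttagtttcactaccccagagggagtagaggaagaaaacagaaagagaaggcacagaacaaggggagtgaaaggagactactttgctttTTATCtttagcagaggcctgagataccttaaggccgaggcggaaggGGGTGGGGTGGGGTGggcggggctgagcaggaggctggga

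The windows of all 4 adult globin genes held each of the 4 motifs, as did 272 of 27025 mouse promoter windows of the same length (1.01%). One by one the motifs were common, with the CACCC box in 51.3% of these windows, the CCAAT box in 34.5%, the TATA box in 23.5% and the GATA motif in 23.0%. The Alas2 window held no CCAAT box. It held 1 GATA motif, the TATA letters far upstream, where matches on both strands overlapped, and 3 CACCC boxes in a row on the opposite strand, starting 40, 35 and 30 bases before the start. The RefSeq starts are not the only ones annotated: between 3 and 161 bases of these windows lie in exons of the GENCODE models. The windows of Hba-a1 and Hba-a2 shared a run of 297 of 300 bases (50 of them after the start), so only Hba-a2 is printed, whereas those of Hbb-bs and Hbb-bt shared no run longer than 14 bases. A match of letters is not a bound site, and binding was not measured in these tumors.

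Before the levels, 2 libraries need description. The first is vehicle replicate 4, where genes with under 1000 exon bases took 8.24% of the counts without globins, against 3.25% to 4.57% in the other 15 tumors, and genes of 5000 bases or more took 20.7%, against 31.6% to 41.2%. These length classes were set after the values of that tumor had been seen. The second, IL-33 replicate 7, held markers of the female reproductive tract at a summed 1530 CPM. The vehicle tumors had 10.8 to 22.4 CPM and the other IL-33 tumors 16.9 to 22.6 CPM. All 8 listed genes were found, and none was without a count over the 16 tumors together. The 10 endothelial markers summed to 1311 CPM in IL-33 replicate 7, against 120 to 306 CPM in the other tumors. The summed levels, fold changes and ratios of the red cell genes are given with and without these 2 tumors.

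All 6 genes were lower in most IL-33 tumors than in most vehicle tumors, and in each group 1 tumor lay far above the rest. For the sum of the 4 globins, the vehicle tumors had a lowest level of 169 CPM, a median of 697 CPM and a highest of 12754 CPM, and the IL-33 tumors a lowest of 50.8 CPM, a median of 149 CPM and a highest of 2810 CPM. The highest were vehicle replicate 4 and IL-33 replicate 7. Below them, the other 7 vehicle tumors reached 1064 CPM and the other 7 IL-33 tumors 343 CPM. In counts of tumors, 4 of the 8 IL-33 tumors lay below every vehicle tumor and 7 lay below the vehicle median, so the groups overlapped.

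As means, the summed globins of the vehicle tumors were 2122 ± 4311 CPM and those of the IL-33 tumors 486 ± 945 CPM (SD, n = 8 each), so both SDs were larger than their means. Without both high tumors they were 603 ± 380 CPM and 154 ± 116 CPM (SD, n = 7 each), a ratio of 3.92. Without vehicle replicate 4 alone the vehicle mean was 603 CPM and the ratio 1.24, and without IL-33 replicate 7 alone the IL-33 mean was 154 CPM and the ratio 13.8. Over all tumors the ratio of the means was 4.37, so leaving out either tumor alone moved it further than leaving out both. The ratio of the medians was 4.67 over all tumors, 3.32 without vehicle replicate 4, 7.25 without the high IL-33 tumor and 5.15 without both. As a share of all counts, the globins took 1.28% in the first of these tumors and 0.281% in the second, 0.0169% to 0.106% in the remaining vehicle tumors and 0.00508% to 0.0343% in the other IL-33 tumors.

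**Figure D1:**
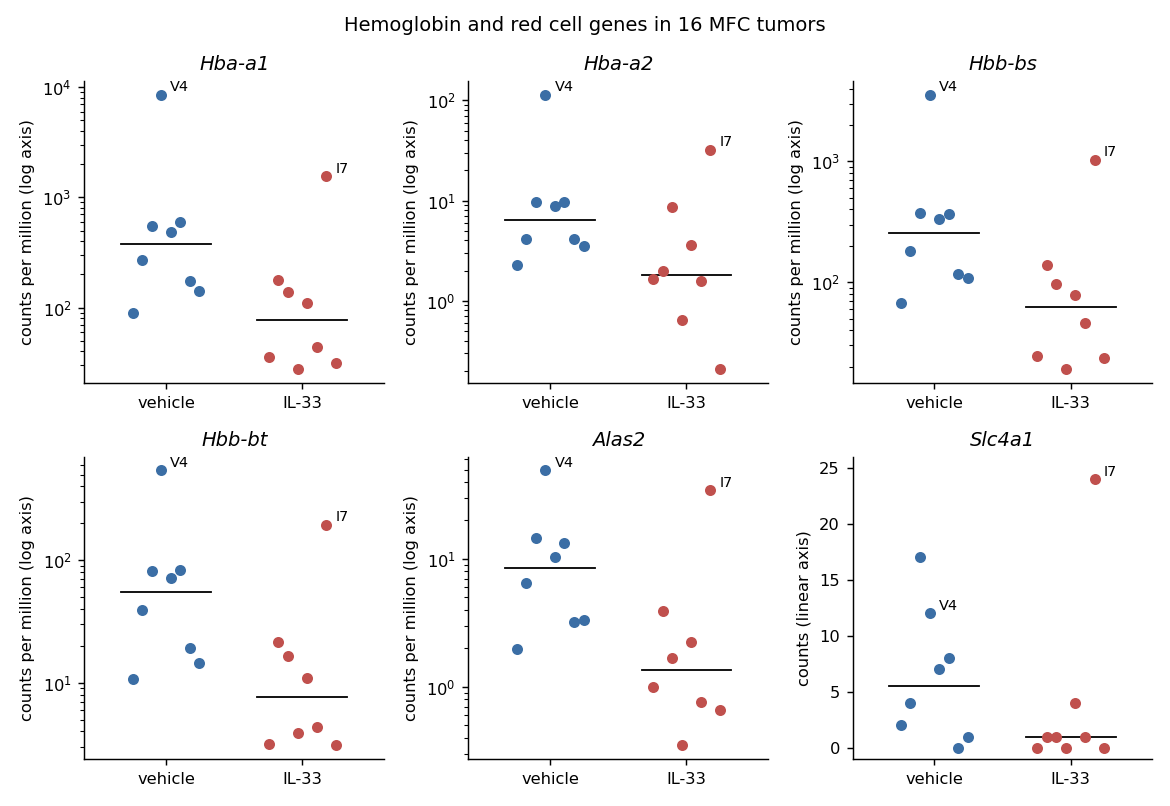
Level of each gene in the 16 tumors, in CPM on a log axis for 5 genes and in counts on a linear axis for Slc4a1. Points are tumors, the black line is the group median, V4 is vehicle replicate 4 and I7 is IL-33 replicate 7. I7 is the highest of the IL-33 tumors in all 6 panels and V4 the highest of the vehicle tumors in 5, with 12 counts of Slc4a1 against 17 in vehicle replicate 3.

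Hba-a1 was the most abundant of the 6. Its vehicle tumors had a lowest level of 89.3 CPM, a median of 377 CPM and a highest of 8543 CPM, and its IL-33 tumors a lowest of 27.4 CPM, a median of 76.5 CPM and a highest of 1556 CPM. Vehicle replicate 4 held 75.0% of the group's Hba-a1 counts and IL-33 replicate 7 held 72.5% of its group's. Hba-a2, its near-identical copy, ran between 2.27 and 114 CPM in the vehicle group, with a median of 6.44 CPM, and between 0.206 and 32.3 CPM in the IL-33 treatment group, with a median of 1.81 CPM. In Hba-a2, 5 of the 8 IL-33 tumors were below every vehicle tumor, the lowest with 5 counts.

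Hbb-bs, the more abundant beta globin, had a lowest level of 67.1 CPM, a median of 257 CPM and a highest of 3558 CPM in the vehicle group. In the IL-33 treatment group the lowest was 18.9 CPM, the median 62.3 CPM and the highest 1028 CPM. Hbb-bt, the other adult beta globin, had 10.6 CPM, 55.5 CPM and 540 CPM in the same order in the vehicle group and 3.09 CPM, 7.62 CPM and 194 CPM in the IL-33 treatment group. For each of the beta genes 4 IL-33 tumors lay below every vehicle tumor and IL-33 replicate 7 lay above all vehicle tumors except replicate 4.

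Alas2, the erythroid heme synthesis enzyme, showed the same order at a far lower level. Its vehicle tumors had a lowest level of 1.98 CPM, a median of 8.48 CPM and a highest of 49.2 CPM, and its IL-33 tumors a lowest of 0.351 CPM (6 counts), a median of 1.35 CPM and a highest of 34.4 CPM. Again 5 of the 8 IL-33 tumors were below every vehicle tumor. Without the 2 high tumors the means were 7.64 ± 5.18 CPM for vehicle and 1.52 ± 1.24 CPM for IL-33 (SD, n = 7 each), a ratio of 5.03.

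Slc4a1, band 3, was near the limit of detection, with 82 counts over the 16 tumors. It had between 0 and 17 counts per vehicle tumor and, in the IL-33 treatment group, 24 counts in replicate 7 and between 0 and 4 in the others. A count of 3, the limit that a count of 0 allows, corresponded to between 0.124 and 0.212 CPM, and 9 of the 16 tumors were at or under it, so no fold is given for single tumors. Per kilobase of exon, the median over the 16 tumors was 193 CPM for Hba-a1, 146 for Hbb-bs, 25.4 for Hbb-bt, 5.75 for Hba-a2, 1.36 for Alas2 and 0.0163 for Slc4a1. This order of levels per length held in all 16 tumors, except that Hbb-bs was above Hba-a1 in 1 of them, IL-33 replicate 6.

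Fitted over the whole table with edgeR's quasi-likelihood test, the 6 genes had negative log2 fold changes for IL-33 against vehicle. They were −3.10 for Hba-a1 (standard error 1.19), −2.30 for Hba-a2 (1.07), −2.49 for Hbb-bs (1.05), −2.39 for Hbb-bt (1.06), −1.74 for Alas2 (0.94) and −1.16 for Slc4a1 (1.11). No gene of the 16817 tested had an adjusted p under 0.05 (0%, Benjamini-Hochberg), with adjusted p from 0.418 to 0.760 among the 6. An unadjusted p under 0.05 was found for 4 of the 6, each lower, where 1.17% of all genes tested were lower by that rule and 9.99% higher. Because this contrast chose the genes, nothing is read from that count. DESeq2 ran at its default settings, under which counts that stand far out in a group can be replaced before the fit. It gave an unadjusted p under 0.05 for 4 of the 6, where it called 1.59% of all genes lower. Its log2 fold changes ran from −1.90 to −1.01, with −1.66 for Hba-a1 (standard error 0.49). Which counts were replaced was not recorded, so these values are not a second test of the same counts.

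The fitted sizes followed the 2 high tumors. Without vehicle replicate 4 the 6 log2 fold changes lay between −0.75 and −0.14, none with an unadjusted p under 0.05 (0.662% of all genes tested were lower by that rule). Without IL-33 replicate 7 they lay between −4.59 and −2.81, all 6 with an unadjusted p under 0.05 (2.29% of all genes). Without both they lay between −2.37 and −1.18, and all but Hba-a2, 5 of 6, passed at an unadjusted p under 0.05 (2.09% of all genes). Leaving out any 1 of the other 7 IL-33 tumors left 2 of the 6 with an unadjusted p under 0.05. In those fits between 127 and 307 of all genes tested were lower by that rule. No adjusted p was under 0.05 in any of these fits, for these or for other genes.

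**Figure D2:**
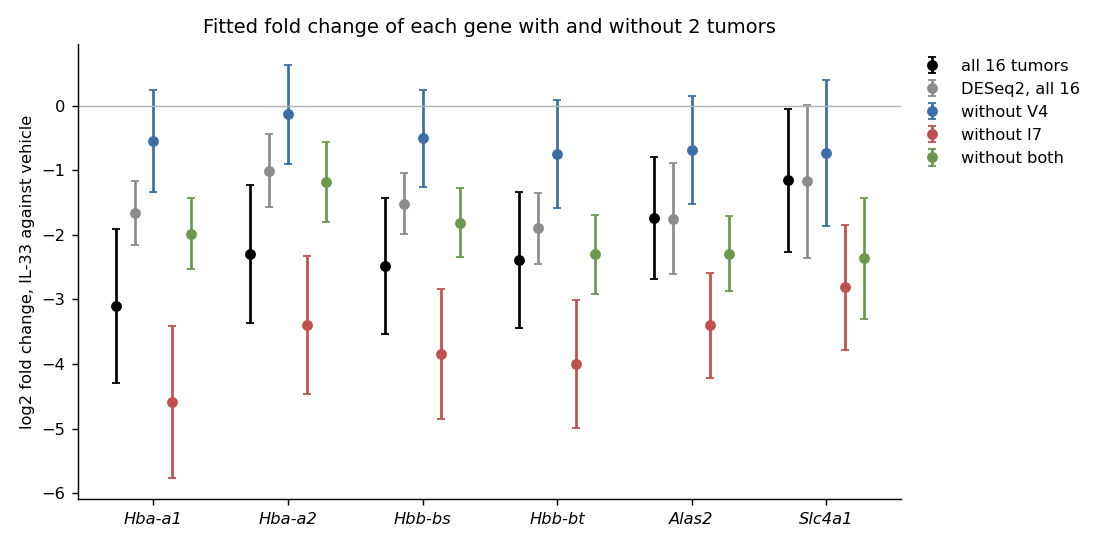
Fitted log2 fold change of each gene, IL-33 against vehicle, with its standard error as the bar, from edgeR over all 16 tumors, from DESeq2, and from edgeR without vehicle replicate 4 (V4), without IL-33 replicate 7 (I7) and without both. All values are below 0. Those without V4 are closest to 0, at −0.75 to −0.14, and those without I7 are the most negative, at −4.59 to −2.81.

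Within each tumor the globins were set against Alas2 and Slc4a1, a measure that does not depend on the total count. Across 16 tumors the summed globins spanned a 251-fold range and the sum of Alas2 and Slc4a1 a 143-fold range, yet the ratio of globin counts to Alas2 and Slc4a1 counts had a median of 81.9 and spanned 3.94-fold. The 95% Clopper-Pearson interval of the ratio, which covers counting error only, held that median in 13 of the 16 tumors. Vehicle replicate 4 had 180339 globin counts to 707, a ratio of 255 (interval 237 to 275), 3.12 times the median of the other 15 tumors. Its interval did not meet that of any other vehicle tumor. IL-33 replicate 7, with a similar level of Alas2, had 49313 globin counts to 627 and a ratio of 78.6 (interval 72.7 to 85.2), in the middle of the series.

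Of the others, IL-33 replicate 3 lay above the median at 150 (interval 106 to 219) and vehicle replicate 3 below it at 65.5 (interval 58.6 to 73.5). IL-33 replicate 4, with 6 counts of Alas2 and none of Slc4a1, had a ratio of 145 whose interval ran from 66.3 to 396. Between the groups the mean log2 ratio was higher by 0.094 in the IL-33 treatment group, against a pooled SD of 0.54, and without both high tumors by 0.35, against a pooled SD of 0.34. The vehicle tumors without replicate 4 averaged 79.4 ± 9.80 globin counts per count of Alas2 and Slc4a1 (SD, n = 7), and the IL-33 tumors without replicate 7 averaged 105 ± 33.1 (SD, n = 7), where the denominators were as low as 6 counts. With the beta globins alone as numerator, vehicle replicate 4 had 82.0 (interval 76.1 to 88.4) and the other 15 tumors between 27.8 and 65.0.

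**Figure D3:**
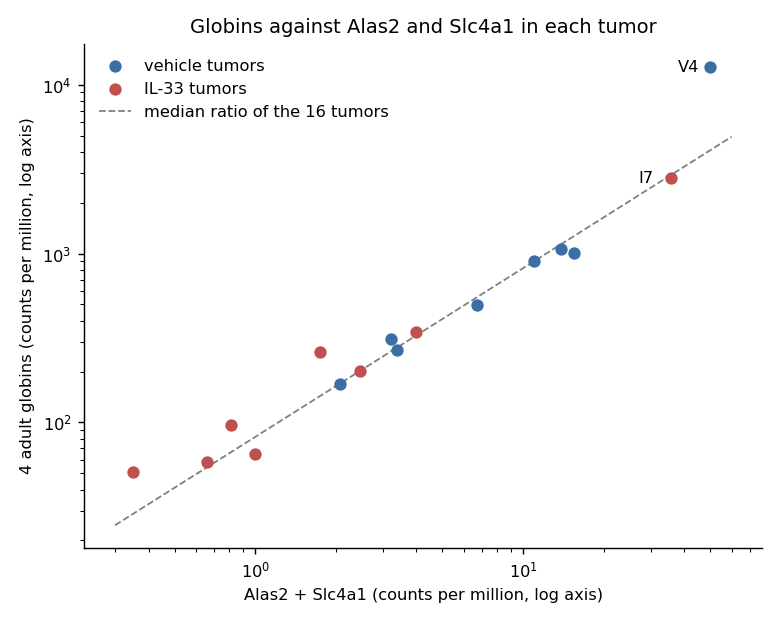
Summed CPM of the 4 adult globins against summed CPM of Alas2 and Slc4a1 in each tumor, both on log axes, with vehicle tumors in blue and IL-33 tumors in red. The dashed line marks the median ratio of 81.9 globin counts per count, which I7 (IL-33 replicate 7) lies next to and V4 (vehicle replicate 4) lies above.

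As a description over tumors that differ in depth and library, log2 levels of the summed globins and of Alas2 had a Pearson r of 0.98 and a Spearman rho of 0.98 over 16 tumors. Over the 14 tumors without the 2 high ones r was 0.98 and rho 0.97. Within the vehicle group without replicate 4 r was 0.99, and within the IL-33 treatment group without replicate 7 it was 0.93 (7 tumors each). Slc4a1, with its few counts, had an r of 0.86 with the globins over 16 tumors and 0.81 over 14.

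Alpha and beta globins were counted in a narrow proportion. The ratio of Hba-a1 and Hba-a2 counts to Hbb-bs and Hbb-bt counts had a median of 1.24 and lay between 1.12 and 1.35 in 14 of the tumors. The exceptions were vehicle replicate 4 at 2.11 (95% interval 2.09 to 2.13) and IL-33 replicate 6 at 0.901 (interval 0.819 to 0.989). Of the globin counts Hba-a1 made up 67.0% in the former and 45.8% in the latter, against 52.3% to 56.5% in the other 14 tumors. IL-33 replicate 7 was not unusual, with 1.30 alpha counts per beta count. Between the groups the mean log2 ratio differed by −0.15 (IL-33 minus vehicle, pooled SD 0.24), and by −0.066 without both high tumors (pooled SD 0.15).

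**Figure D4:**
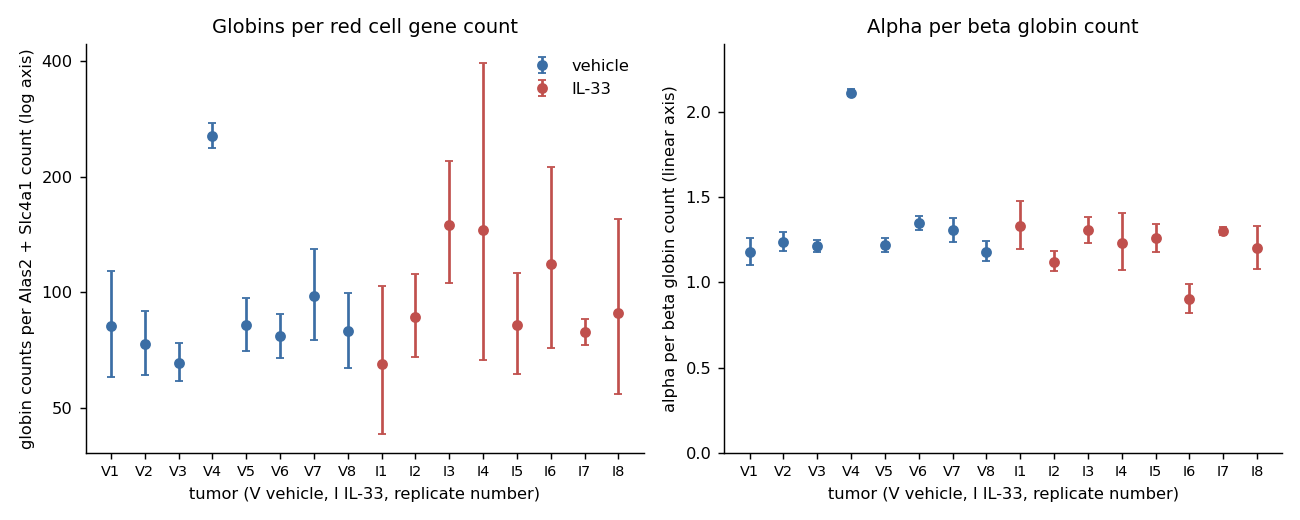
Globin counts per count of Alas2 and Slc4a1 (left, log axis) and alpha per beta globin count (right, linear axis) in each tumor, with 95% Clopper-Pearson intervals as bars. V4 stands above the other tumors in both panels, at 255 and 2.11, and I6 below them on the right at 0.901.

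Within the pairs of copies the proportions were less even. Hba-a1 had between 16.4 (IL-33 replicate 3) and 153 (IL-33 replicate 8, on 5 counts of Hba-a2) times the counts of Hba-a2, and 11 of the 16 intervals did not hold the median of 45.4. Hbb-bs had between 4.44 and 10.7 times the counts of Hbb-bt. Among vehicle tumors, replicates 2, 3, 5 and 6, which had the higher Hbb-bt levels apart from replicate 4, had ratios of 4.44 to 4.67, and replicates 1, 4, 7 and 8 had ratios of 6.04 to 7.51. The part of ambiguous reads in these splits was not tested.

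**Figure D5:**
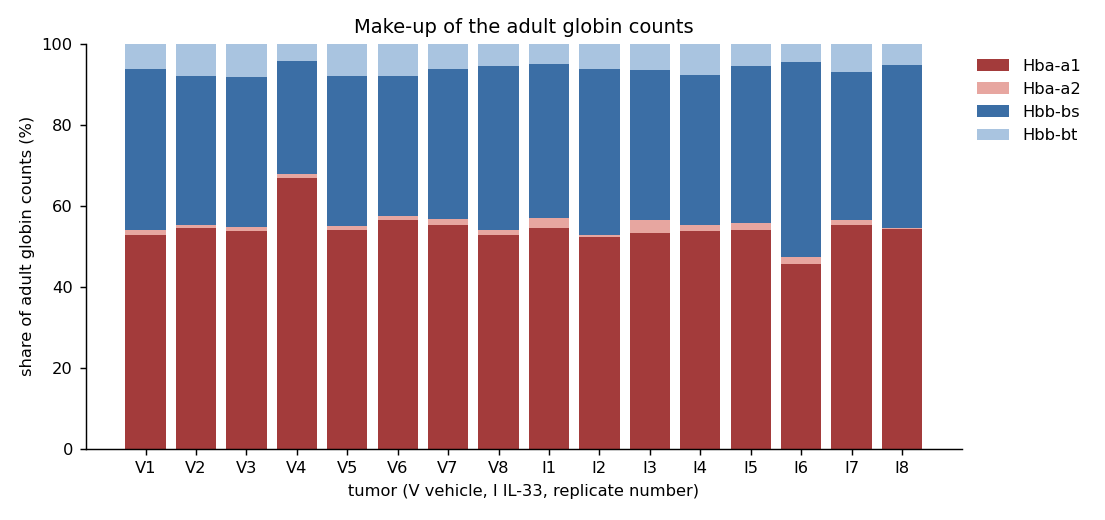
Share of each adult globin gene in the tumor's adult globin counts, in percent, with V for vehicle and I for IL-33 and the replicate number. Hba-a1 makes up 67.0% in V4 and 45.8% in I6, and 52.3% to 56.5% elsewhere.

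How far the 2 high tumors stood out depended on the gene. In vehicle replicate 4 Hba-a1 was 31.7 times the median of the other 7 vehicle tumors, Hba-a2 27.6 times, Hbb-bs 19.6 times, Hbb-bt 13.7 times and Alas2 7.56 times. Genes of the same length class were also raised there: the 247 genes under 1000 bases compared had a median of 2.39 times, with 1 of them at or above Hba-a1, while the 6552 genes of at least 1000 and under 5000 bases, the class of Alas2, had a median of 0.764 times, with 9 at or above Alas2. In IL-33 replicate 7 the same folds over the other 7 IL-33 tumors were 35.4 for Hba-a1, 19.8 for Hba-a2, 22.2 for Hbb-bs, 45.0 for Hbb-bt and 34.4 for Alas2, and the medians of both length classes were near 1, at 1.07. The part of transcript length in the globin levels of vehicle replicate 4 was not tested beyond these values.

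The other genes of the red cell program were taken from lists by role, and their counts stand beside 9.99% of all genes tested that were higher and 1.17% that were lower at an unadjusted p under 0.05. The embryonic and minor globins had 7 counts in all over 6 genes and 16 tumors, and none could be tested. Gata1 and Klf1, the transcription factors that drive erythroid genes, had 79 and 47 counts over the 16 tumors, and IL-33 replicate 7 held 37 of the 79 Gata1 counts. Several membrane genes of erythroid cells were as scarce, with 8 counts of Rhag, 7 of Epb42 and 3 of Kel. Adult globin, in contrast, had 870 counts or more in every tumor.

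Of 9 erythroid regulators tested, 1 was higher at an unadjusted p under 0.05 and none lower: Zfpm1, the GATA cofactor FOG-1, with a log2 fold change of 0.66, which did not pass without IL-33 replicate 7 (0.64). This 1 of 9 stands beside 9.99% of all genes. The list's median was 0.63, beside 0.06 for all genes tested, and 0.36 without IL-33 replicate 7. Sox6, a repressor of embryonic globin, had −0.01, and the erythropoietin receptor Epor had 0.38. Of 15 red cell membrane genes tested, 2 were higher, Xk (1.57) and Ermap (1.66), and none lower, beside 9.99% of all genes higher, with a list median of 0.20 over all tumors and −0.03 without IL-33 replicate 7. Xk had 5.47 CPM and Ermap 1.71 CPM in IL-33 replicate 7, against at most 1.17 and 0.379 CPM in the other tumors, and neither had a p under 0.05 without that tumor. The water channel Aqp1 (429 to 1033 CPM outside vehicle replicate 4) and protein 4.1 (Epb41) were plentiful and had log2 fold changes of 0.01 and 0.42. Aqp1 and Epb41 were lowest in vehicle replicate 4, at 188 and 7.50 CPM, the tumor with the most globin. Of the 15 membrane genes, 4 had a negative log2 fold change. One of these was Tmod1 (−0.87, named after its values were seen), without an unadjusted p under 0.05. It had 10.2 CPM in vehicle replicate 4 and at most 3.21 CPM in the other vehicle tumors. In IL-33 replicate 7 it had 8.49 CPM, and in the other IL-33 tumors at most 2.41 CPM.

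None of the 12 other genes of heme synthesis and mitochondrial iron import passed at an unadjusted p under 0.05, and their median log2 fold change was −0.15, or 0.03 without vehicle replicate 4. Ferrochelatase (Fech), which inserts iron into the ring, had 0.00, and the ubiquitous enzyme Alas1 had 0.20, beside −1.74 for its erythroid counterpart Alas2. Without IL-33 replicate 7 1 of the 12 passed, the mitochondrial iron importer Slc25a37, which was higher by 0.25. In that fit 289 of 15803 genes tested were higher at an unadjusted p under 0.05. Of 9 red cell cytosol genes 1 was lower, Bpgm, which makes 2,3-bisphosphoglycerate (−0.31), and 2 higher, carbonic anhydrase 2 (Car2, 1.65) and Pklr, which had no count in the vehicle group. Pklr had 28 of its 31 counts in IL-33 replicate 7, and Car2 had 74.0 CPM there against 1.82 to 10.4 CPM elsewhere. Without vehicle replicate 4 the value of Bpgm was −0.29 and no longer passed. Without IL-33 replicate 7 that of Car2 was 0.50 and did not pass. The list's median was 0.02, and of all genes 1.17% were lower and 9.99% higher.

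Of 11 genes of reticulocyte maturation, 1 was higher and none lower, beside 9.99% of all genes higher, with a median of 0.02. It was Tent5c, a poly(A) polymerase also made by plasma cells, with a log2 fold change of 1.96 and 1.70 without IL-33 replicate 7. Bnip3l, which clears mitochondria, had 0.06. Without IL-33 replicate 7 the low-count gene Trim10 had an unadjusted p under 0.05 and a log2 fold change of −2.71 (named after its values were seen).

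Of 12 genes that clear hemoglobin and heme, 1 was lower (1.17% of all genes were) and none higher, with a list median of −0.22. It was Hpx (hemopexin, −1.83), with 111 of its 178 vehicle counts in 1 vehicle tumor other than replicate 4, and it did not pass without replicate 4 (−1.55). Most of the summed level of the list came from the ferritin genes Ftl1 and Fth1 and from Lrp1. Their vehicle means were 4392, 4091 and 2397 CPM, against at most 290 CPM for any other gene of the list. As a description, the log2 sum of the list, which thus follows mainly these genes, had an r of 0.71 with that of the globins over 16 tumors. Over 14 tumors r was 0.62. Within the vehicle group without replicate 4 r was 0.89, and within the IL-33 treatment group without replicate 7 it was 0.51 (7 tumors each). Heme oxygenase 1 (Hmox1) had 0.13, the hemoglobin scavenger receptor Cd163 −0.20 and ferritin light chain (Ftl1) −0.75. Cd163 had 132 CPM in IL-33 replicate 7 and 6.67 to 27.2 CPM in the other IL-33 tumors. Its value was −0.82 without that tumor and −0.90 without both high tumors, neither with an unadjusted p under 0.05. Ftl1 stood at 10994 CPM in vehicle replicate 4 and 2234 to 4058 CPM in the other tumors. Haptoglobin (Hp), which binds free hemoglobin, had 2215 CPM in IL-33 replicate 7 and 16.9 to 239 CPM in the other tumors, with a log2 fold change of 1.47 over all tumors and −0.41 without that one.

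Markers of other cells that blood or the peritoneum could bring were read beside the globins. Of 11 platelet genes tested 1 was lower, Gp1bb (−3.51), with 142 of its 215 counts in vehicle replicate 4, and without that tumor none passed. The summed platelet markers (12 genes, 6 under 1 CPM in every tumor) stood at 131 CPM in vehicle replicate 4 and at 101 CPM in the high IL-33 tumor, against 23.0 to 68.0 CPM in the other vehicle tumors and 17.5 to 64.7 CPM in the other IL-33 tumors. Their log2 sum had an r of 0.77 with that of the globins over 16 tumors and 0.48 over 14. Summed neutrophil markers were 472 CPM in vehicle replicate 4 and 52.0 to 191 CPM elsewhere, and none of the 6 passed. Of 7 immature neutrophil genes 5 were higher, beside 9.99% of all genes. Without IL-33 replicate 7 it was 4 of 7, where 289 of 15803 genes tested were higher. Without both high tumors it was 5, where 330 of 15744 genes tested were higher. The sum of the immature neutrophil genes was 428 CPM in IL-33 replicate 7 and 26.5 to 190 CPM elsewhere.

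Of 10 endothelial genes and 6 macrophage genes none passed. The endothelial list had a median of 0.70 over all tumors and −0.23 without IL-33 replicate 7. Endothelial and globin sums had an r of 0.27 over 16 tumors and −0.15 over 14. Epithelial genes gave 6 higher of 8, and female reproductive tract genes 7 higher of 8, beside 9.99% of all genes. Without IL-33 replicate 7 none of either list was higher, and 2 epithelial genes were lower, Krt18 (−2.27) and Cldn3 (−2.54), beside 2.29% of all genes. Of 6 liver genes 3 were lower, Alb, Fgb and Apoa2, on sums of 32.7 CPM or less, beside 1.17% of all genes. A single tumor held 373 of the 383 vehicle counts of Alb, and all 55 of Fgb were in 1 tumor. DESeq2 called 1 of the 6 lower, beside 1.59% of all genes. The part of platelets, neutrophils or tissue from outside the tumor in the globin levels was not tested.

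To place the set among all genes, the mean log2 CPM of the 6 genes was set against the 13104 genes with a mean of at least 1 CPM over 16 tumors. As a description, the most alike were Akr1c18 (r 0.90), Fcna (0.90), Gjb5 (0.89), Trem2 (0.89), Zfp358 (0.88), Ptpn5 (0.88), Smarcd3 (0.87), Col16a1 (0.86), Hist2h2aa2 (0.86) and Tmem53 (0.85). Each had its highest level in vehicle replicate 4 or IL-33 replicate 7. Over the 14 other tumors the first 10 of 12431 genes were Scd2 (0.88), Akr1c18 (0.88), Scd1 (0.85), Cemip (0.82), Mmp10 (0.82), Stc1 (0.82), Sox2 (0.82), Tspan11 (0.81), Col16a1 (0.80) and Fam189b (0.80), and 2 genes were in both sets of 10, Akr1c18 and Col16a1. For comparison, the r of Alas2 with the summed globins over those 14 tumors was 0.98. That r used the globin sum in CPM of the total count. The ranked genes were set against the mean of the 6 genes, on levels scaled by edgeR, so the 2 kinds of r are not like for like. The lists of erythroid regulators, red cell membrane, heme synthesis, red cell cytosol and reticulocyte maturation were read in the same way. Their highest r with the set was 0.72 for Ppox over 16 tumors and 0.51 for catalase (Cat) over 14. In the hemoglobin and heme clearance list it was 0.67 for Hp over 16 tumors and 0.63 for Ftl1 over 14.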

How the data were processed

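RNA of 16 tumors was measured, and 1 table per tumor was used. The authors deposited raw read counts per Ensembl gene for each tumor, without normalization. The submitters' processing notes name HISAT2, featureCounts and mm10. Their versions, the annotation release, the strand setting and the handling of reads with several hits are not given in the sources used here. Groups and replicate numbers came from the sample titles. Gene names, exon lengths and coordinates were taken from GENCODE M21 (22255 of 22298 identifiers matched).

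Depth ran from 14139268 to 24290794 counts per tumor, and intervals cover counting error only. CPM used the total count. Genes summing to 10 counts or more (16817) entered the fit in edgeR 4.0.16 (R 4.3.3; TMM, glmQLFit, glmQLFTest, Benjamini-Hochberg), and DESeq2 1.42.0 was an alternative. DESeq2 ran at its default settings, which can replace outlying counts before the fit. Standard errors of the edgeR fits were derived from the quasi-likelihood F. Ratios within a tumor were given 95% Clopper-Pearson intervals (SciPy). Both tests were first checked on simulated counts.

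The genes of interest, the 17 gene lists and the comparisons were chosen with earlier results of these data known. Genes named beside them were, per list, up to 4 with the highest mean CPM and up to 4 with the smallest unadjusted p under 0.05, and the 10 most correlated with the set over 16 and over 14 tumors. Scarce erythroid genes and genes of known role were named in addition, after their values were seen. Alternatives were other normalizations, filters and tests, a replicate block, and leaving out each tumor or the 2 high ones together. Some genes of these lists are counted in the list totals but not reported here by name.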

Additional observations from a re-analysis of the deposited data

Results flagged for a closer look

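In each group of 8 tumors, the gap between the highest or lowest tumor and its neighbour was divided by the range of the group for 14 measures, and the 13 ends above 0.526 (Dixon's 95% value for 8) are listed. The genes were chosen for the high levels of 2 of these tumors, and the length classes were set after one of them was seen, so the values of vehicle replicate 4 and IL-33 replicate 7 are a description and no test. Vehicle replicate 4 was the highest of its group in log2(CPM + 0.5) of Hba-a1 (13.06, others 6.49 to 9.23), Hba-a2 (6.84, others 1.47 to 3.36) and Hbb-bs (11.80, others 6.08 to 8.56). It was also highest in the log2 CPM of the summed globins (13.64), in the log2 ratio of globin counts to Alas2 and Slc4a1 counts (7.99, others 6.03 to 6.61) and in the log2 ratio of alpha to beta globin counts (1.08, others 0.24 to 0.43). The same tumor was highest in the share of counts on genes under 1000 bases (8.24%) and lowest in that on genes of 5000 bases or more (20.7%).

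IL-33 replicate 7 was the highest of its group in log2(CPM + 0.5) of Hba-a1 (10.60, others at most 7.49), Hbb-bt (7.61, others 1.84 to 4.47), Alas2 (5.12, others −0.23 to 2.14) and Slc4a1 (0.90, others at most −0.48). In its ratios of globins to Alas2 and Slc4a1 and of alpha to beta globin it had no such gap. IL-33 replicate 6 was the lowest of its group in the log2 ratio of alpha to beta globin counts, at −0.15 (others 0.17 to 0.41). About 1 in 20 groups shows such a gap by chance, and 28 were looked at.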

How the results depend on the processing

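The 6 genes kept a negative fold change in all 137 refits of a gene under an alternative, and no adjusted p was under 0.05, but their size depended on 2 tumors. Leaving out 1 tumor at a time, Hba-a1 ranged from −4.59 to −0.55 on the log2 scale (from −3.28 to −2.90 when vehicle replicate 4 and IL-33 replicate 7 were kept), and Alas2 from −3.40 to −0.69. The log2 difference in summed globins (IL-33 minus vehicle, −2.06) ranged from −2.63 to −1.47, that of summed Alas2 and Slc4a1 (−2.15) from −2.77 to −1.78, that of their ratio (0.094) from 0.0056 to 0.31 and that of alpha to beta globin (−0.15) from −0.17 to −0.049. All these moved by less than 1 pooled SD, also under the other scalings and numerators.

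At an unadjusted p under 0.05, 196 of all genes tested were lower in IL-33 and 1680 higher. With each tumor left out the lower genes ranged from 111 (without vehicle replicate 4) to 362 (without IL-33 replicate 7), and IL-33 replicates 3 and 5 also moved them, to 307 and 127, while the higher ones ran from 289 (without IL-33 replicate 7) to 1902. Without both high tumors 329 were lower and 330 higher. DESeq2 gave 424 higher, and edgeR with its own expression filter, which tested 12800 genes, 499. The cause of the other shifts was not tested. With the replicate block 72 were lower and 246 higher, and 2 of the 6 genes passed in place of 4. The sample titles do not say whether the replicate numbers pair the tumors. Correlations of same-numbered deviations ran from −0.32 to 0.35, and 1 of 8 was highest with its own number. With so few pairs these values cannot decide it. Of the 10 genes most like the set, 2 were among the 10 over 14 tumors.

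Depth limits Slc4a1 and the ratios with few Alas2 counts.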
